A study of Mus musculus with 20 samples.

Results

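In mouse hindlimb muscle, 66 genes with symbols linked to antigen presentation or interferon signalling were followed across a deletion of the clock gene Bmal1 and a training programme. They were taken by name, and a symbol alone does not show that a gene acts in either process. Symbols had to begin with H2- (the mouse major histocompatibility complex, MHC), Ifi or Ifit (interferon-induced genes), Oas, Gbp, Irf or Stat, and to reach 1 CPM in 5 or more of the 20 libraries. CPM is the estimated count of a gene scaled to a common library total. Of 21844 genes in the table, 91 had such a symbol and 66 of them passed the level rule, as did 14361 genes in all. No gene passed through 1 group only. Oas1a was just inside the rule, with 5 libraries at the limit and a mean of 0.639 CPM, and Ifi209 was just outside it, with 4 libraries and a mean of 0.681 CPM.

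The libraries were bulk RNA from muscle labelled gastrocnemius in 2 fields and tibialis anterior in another, collected 48 hours post per the sample labels and 47 hours after the last bout per the series design. Every animal carried the genotype Cre+:iMSBmal1 fl/fl, a floxed Bmal1 with a muscle-specific Cre, so the vehicle groups carried the Cre too. The 4 groups of 5 libraries were vehicle without exercise, iMSBmal1KO without exercise, vehicle with 6 weeks of daily treadmill training, and iMSBmal1KO with the same training, called vehicle sedentary, knockout sedentary, vehicle trained and knockout trained here. The labels give no age, sex or inducing agent, and Cre confined to muscle leaves Bmal1 intact in blood, vessel and connective tissue cells of the sample. Knockout trained libraries 1 and 4, and likewise 3 and 5, were much more alike than other pairs of libraries. In genes with high counts their variance was 2.375 and 1.755 times that of sampling alone, against at least 6.38 for any other pair. Each of these pairs was counted as 1 sample, which left 3 samples in that group and 18 in all. Nothing in the labels says that the remaining libraries came from separate animals, so p-values measure the spread between these samples.

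MHC class I molecules, made of a heavy chain and beta-2 microglobulin, show peptides from inside the cell to CD8 T cells, and nearly all cells make them. MHC class II molecules, made of an alpha and a beta chain, show peptides from outside the cell to CD4 T cells and are made mainly by dendritic cells, macrophages and B cells. Interferons act through JAK kinases and STAT transcription factors. Type I interferon signals mainly through a complex of STAT factors and IRF9 that binds the interferon-stimulated response element (ISRE), and interferon gamma through STAT dimers that bind gamma-activated sites (GAS). The Ifit, Ifitm and Oas products act against viruses, and guanylate-binding proteins (Gbp) act against intracellular pathogens. MHC promoters carry a Y box bound by the factor NF-Y.

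RefSeq windows from 250 bases before to 50 bases after the start of transcription (GRCm38.p6) matched 51 of the 66 genes, and the first window listed for each gene was searched on both strands. The ISRE core GAAANNGAA was present in 18 of the 51 windows (35.3%), against 8.57% of the 27025 windows in the table and 7% of the 10291 windows of tested genes. The GAS letters TTCNNNGAA were in 11 (21.6%), against 8.47% and 6.67%, and the Y box letters CTGATTGG were in 8 (15.7%), against 4.31% and 6.03%. The E-box CACGTG, the site bound by BMAL1 and its partner CLOCK, was in 1 window (1.96%), that of Ifi30, against 7.24% and 10.2%. A match describes the letters and is not a binding site shown by these data.

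Stretches around ISRE cores are printed for the pair Ifit3 and Ifit3b, whose levels in the groups differed from each other, and for the 4 Gbp genes with a window, 4 of 4 of which held the core. The strand is that of transcription, the capitals mark the cores, and each core lies on the opposite strand, so it reads as its reverse complement here. Ifit3 is at chr19:34583354-34583455 and Ifit3b at chr19:34607750-34607851, both on the plus strand.
Ifit3: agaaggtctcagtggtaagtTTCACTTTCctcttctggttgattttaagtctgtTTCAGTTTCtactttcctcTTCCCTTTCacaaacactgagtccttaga
Ifit3b: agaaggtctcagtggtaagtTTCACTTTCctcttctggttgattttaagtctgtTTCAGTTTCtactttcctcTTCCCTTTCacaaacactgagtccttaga
Gbp2: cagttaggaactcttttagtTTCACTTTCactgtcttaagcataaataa
Gbp3: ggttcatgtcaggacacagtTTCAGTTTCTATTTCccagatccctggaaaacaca
Gbp5: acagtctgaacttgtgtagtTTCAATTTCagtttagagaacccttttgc
Gbp7: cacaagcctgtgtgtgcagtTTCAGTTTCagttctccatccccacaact

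Ifit3 and Ifit3b shared all 102 of the 102 bases printed, with 3 cores each, and their windows shared an unbroken run of 169 bases. The stretches of Gbp2 (chr3:142620585-142620633), Gbp3 (chr3:142559980-142560034), Gbp5 (chr3:142496750-142496798) and Gbp7 (chr3:142530264-142530312) lie on the plus strand of one chromosome, and the Gbp3 stretch holds 2 overlapping cores. Gbp4, Gbp6, Gbp9 and Gbp10 lie together on chromosome 5.

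The Y box is shown for the class II alpha and beta chains H2-Aa and H2-Eb1 and for the class I heavy chain H2-D1, with the 8 letters in capitals. H2-Aa is at chr17:34287847-34287894 on the minus strand, H2-Eb1 at chr17:34305785-34305832 on the plus strand and H2-D1 at chr17:35263021-35263068 on the plus strand, where the box is on the opposite strand and reads CCAATCAG.
H2-Aa: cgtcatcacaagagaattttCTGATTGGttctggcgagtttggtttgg
H2-Eb1: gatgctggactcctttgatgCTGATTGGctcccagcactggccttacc
H2-D1: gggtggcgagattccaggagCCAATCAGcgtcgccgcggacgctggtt
The 8 genes with a Y box were H2-Aa, H2-Eb1, H2-D1, H2-K1, H2-Q6, H2-Q7, H2-T23 and Irf8.

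Levels between genes were compared as mean CPM per kilobase of exon over the 18 samples, with each knockout trained pair averaged first. The highest were Ifitm2 with 66.1, Ifitm3 with 59.8, H2-D1 with 45.4, Ifi27l2a with 37.9, H2-K1 with 37.0 and Stat5b with 36.7 CPM per kilobase. Ifitm2 and Ifitm3 are membrane proteins that hinder virus entry, and STAT5B carries growth hormone and cytokine signals. The class II chains H2-Eb1, H2-Ab1 and H2-Aa had 13.6, 10.7 and 8.67 CPM per kilobase, and the peptide-loading helper H2-DMa had 1.13. Stat3 had 5.80 and Stat2 1.27 CPM per kilobase. The Oas genes were low, with 0.481 for Oasl2, 0.38 for Oas2 and 0.339 CPM per kilobase for Oas1a. Of the 8 Gbp genes, Gbp6 was the highest with 4.31 and Gbp5 the lowest with 0.858 CPM per kilobase.

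The targeted gene, Bmal1, stands in the table as Arntl. It was at 6.79 ± 0.89 CPM (SD, n = 5) in vehicle sedentary and 13.2 ± 3.28 CPM (SD, n = 5) in knockout sedentary muscle, with no overlap, so it was higher in the libraries labelled knockout by 0.85 on the log2(CPM + 1) scale (exact permutation test, two-sided, p = 0.00794). In trained muscle, vehicle libraries other than library 2 were between 6.32 and 6.68 CPM, vehicle trained library 2 was at 132.3 CPM, and the knockout trained samples were between 8.04 and 16.1 CPM (exact permutation p = 0.786; without library 2 the difference was 0.62, with p = 0.0571, the smallest p that 4 against 3 samples allow). A count over the whole gene does not tell whether the floxed part was removed, so it is no check of the deletion, and each group below is a group as labelled. Library totals ran from 10610333 to 19153527 estimated counts. Vehicle trained library 2 stood apart from the average of its 4 group mates. After 1 was added to each CPM, 26.1% of the tested genes differed over 2-fold, against at most 4.07% for any other sample. Results that rest on vehicle trained library 2 are therefore given with and without it. Muscle fibre markers were present in every library, with sums between 49770 and 89910 CPM.

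None of the 66 genes passed the test for the deletion or for training. In bulk muscle, fewer cells of a type and less RNA per cell cannot be told apart. With edgeR's quasi-likelihood test and Benjamini-Hochberg adjustment over the 14361 tested genes at 0.05, 0 of 66 were called between knockout and vehicle in sedentary muscle, where 2.33% of all tested genes were called, and 0 of 66 in trained muscle, where 3.29% were. For training the calls were also 0 of 66, beside 0% of all tested genes in vehicle and 0% in knockout muscle, and for the interaction of deletion and training 0 of 66 beside 0%. At an unadjusted p under 0.05, 5, 12, 14, 2 and 5 of the 66 were counted in these comparisons, in that order, beside 9.82%, 17.2%, 15.2%, 9.69% and 7.5% of all tested genes. DESeq2 called 1, 2, 0, 0 and 0 of the 66, beside 3.81%, 6.43%, 0.106%, 1.4% and 0.184% of all genes. With limma on log2(CPM + 1) the calls were 1, 0, 0, 0 and 0, beside 2.34%, 3.01%, 0%, 0% and 0%.

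Without vehicle trained library 2, whose spread enters the common fit, 3 of the 66 were called in the sedentary comparison: Gbp6 and Ifit3b fell and Stat5a rose, with 6.97% of all tested genes called. In the trained comparison Ifit3b fell and Stat5a rose (2 of 66, with 8.66% of all tested genes called). The training comparisons without it gave 0 of 66 with 0% of all genes called in vehicle and 0 of 66 with 0.843% in knockout muscle, and the interaction gave 0 of 66 with 0%. At an unadjusted p under 0.05 these last 3 had 12, 4 and 5 of the 66, beside 13%, 17.5% and 11.4% of all genes. DESeq2 called 0 in each of the 3 without that library, beside 0.153%, 4.98% and 0.808% of all genes. The limma calls were 0, 1 and 0, beside 0.00696%, 3.22% and 0%, the 1 being Stat5b, lower in trained knockout muscle.

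Gbp6, a guanylate-binding protein of chromosome 5, had the lowest p of the 66 in the sedentary comparison. Vehicle sedentary libraries 1 to 5 were at 37.9, 36.9, 33.3, 35.9 and 38.2 CPM, and knockout sedentary libraries 1 to 5 at 12.6, 16.6, 19.4, 25.4 and 15.9 CPM. All 5 knockout libraries were below all 5 vehicle libraries, and the vehicle values were closely spaced. The log2 change was -1.08 (SE 0.31, 2.12-fold lower, adjusted p = 0.0903), and without vehicle trained library 2 it was -1.08 (SE 0.18, adjusted p = 0.000543, edgeR). In trained muscle the vehicle libraries were at 20.2, 63.3, 27.7, 17.9 and 19.98 CPM. The knockout trained samples were at 12.4 and 11.8 CPM for the pair 1 and 4, 17.7 CPM for library 2, and 10.45 and 11.8 CPM for the pair 3 and 5, all below the vehicle values. The change there was -1.12 (SE 0.37, adjusted p = 0.12) and moved to -0.60 (SE 0.22, adjusted p = 0.104) without library 2 (edgeR). The same gene was lower in trained than in sedentary vehicle muscle once library 2 was left out, by a log2 change of -0.73 (SE 0.19, adjusted p = 0.344, edgeR), with no overlap.

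Gbp10 lies beside Gbp6, and their transcripts are 98.5% identical over 1380 aligned bases, so the split of reads between them is uncertain. Gbp10 was at 8.12 ± 2.88 CPM (SD, n = 5) in vehicle sedentary and 4.22 ± 1.08 CPM (SD, n = 5) in knockout sedentary muscle, with overlap. Its log2 change was -1.0 (SE 0.35, adjusted p = 0.211; 0.0591 without library 2; edgeR). Summed, the pair was at 44.6 ± 4.71 CPM in vehicle and 22.2 ± 5.06 CPM in knockout sedentary muscle (SD, n = 5 each), with ranges of 38.1 to 49.9 and 15.9 to 29.8 CPM that do not overlap.

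In the sedentary comparison the other Gbp genes lay on both sides of 0: the log2 change was 0.53 for Gbp3, 0.18 for Gbp9, 0.15 for Gbp2, 0.14 for Gbp4, 0.12 for Gbp5 and -0.30 for Gbp7, each with overlapping groups and an adjusted p above 0.05. The 8 Gbp genes had a median of 0.13, with 5 of 8 positive, beside a median of 0.01 over all tested genes. Without knockout sedentary library 3, described further on, the median was -0.24, with 2 of 8 positive.

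Ifit3b, a near copy of the antiviral gene Ifit3, also had low knockout values. Vehicle sedentary libraries were at 4.37, 4.94, 4.82, 4.07 and 5.30 CPM and knockout sedentary libraries at 2.54, 2.64, 2.61, 2.14 and 1.27 CPM. The 2 groups do not overlap. The log2 change was -1.13 (SE 0.38, 2.18-fold lower, adjusted p = 0.195; -1.12, adjusted p = 0.00246 without library 2; edgeR). In trained muscle the vehicle libraries were at 5.21, 0.537, 4.93, 6.24 and 3.09 CPM, of which 0.537 CPM was library 2. The knockout trained samples were at 1.34 and 1.52 CPM for the pair 1 and 4, 2.43 CPM for library 2, and 1.60 and 1.96 CPM for the pair 3 and 5, above that library and below the other 4. The trained change was -1.04 (SE 0.46, adjusted p = 0.248; -1.32, adjusted p = 0.00418 without library 2; edgeR).

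Ifit3 itself, with the same printed start region, was at 5.65 ± 1.93 CPM in vehicle and 6.87 ± 1.61 CPM in knockout sedentary muscle (SD, n = 5 each), a log2 change of 0.23 (SE 0.25, adjusted p = 0.951, edgeR). The transcripts of Ifit3 and Ifit3b are 97.8% identical over 1700 aligned bases, so reads can be assigned to either. Their sum was 10.3 ± 1.80 CPM in vehicle and 9.11 ± 1.96 CPM in knockout sedentary muscle (SD, n = 5 each), and the ranges overlapped. Ifit1 and Ifit2, of the same cluster, had log2 changes of -0.47 and 0.24.

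Stat5a, a transcription factor of cytokine and growth hormone signalling, had higher values in knockout muscle. Vehicle sedentary libraries were at 8.94, 14.9, 11.6, 10.4 and 11.5 CPM and knockout sedentary libraries at 17.5, 15.7, 14.8, 17.2 and 16.6 CPM. Only vehicle library 2 reached the lowest knockout value. The log2 change was 0.46 (SE 0.16, 1.37-fold, adjusted p = 0.206; 0.46, adjusted p = 0.0353 without vehicle trained library 2; edgeR). In trained muscle the vehicle libraries other than library 2 were between 9.68 and 12.3 CPM, library 2 was at 14.8 CPM and the knockout trained samples averaged 15.02 ± 3.21 CPM (SD, n = 3). The trained change was 0.41 (SE 0.18, adjusted p = 0.254; 0.55, adjusted p = 0.0346 without library 2; edgeR). Its neighbour Stat5b, the most abundant Stat here, was at 195.5 ± 20.1 and 224.2 ± 18.98 CPM in the sedentary groups (SD, n = 5 each), a change of 0.14 (SE 0.19, adjusted p = 0.977, edgeR). Stat5a and Stat5b transcripts are 91.4% identical over 684 aligned bases.

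**Figure D1:**
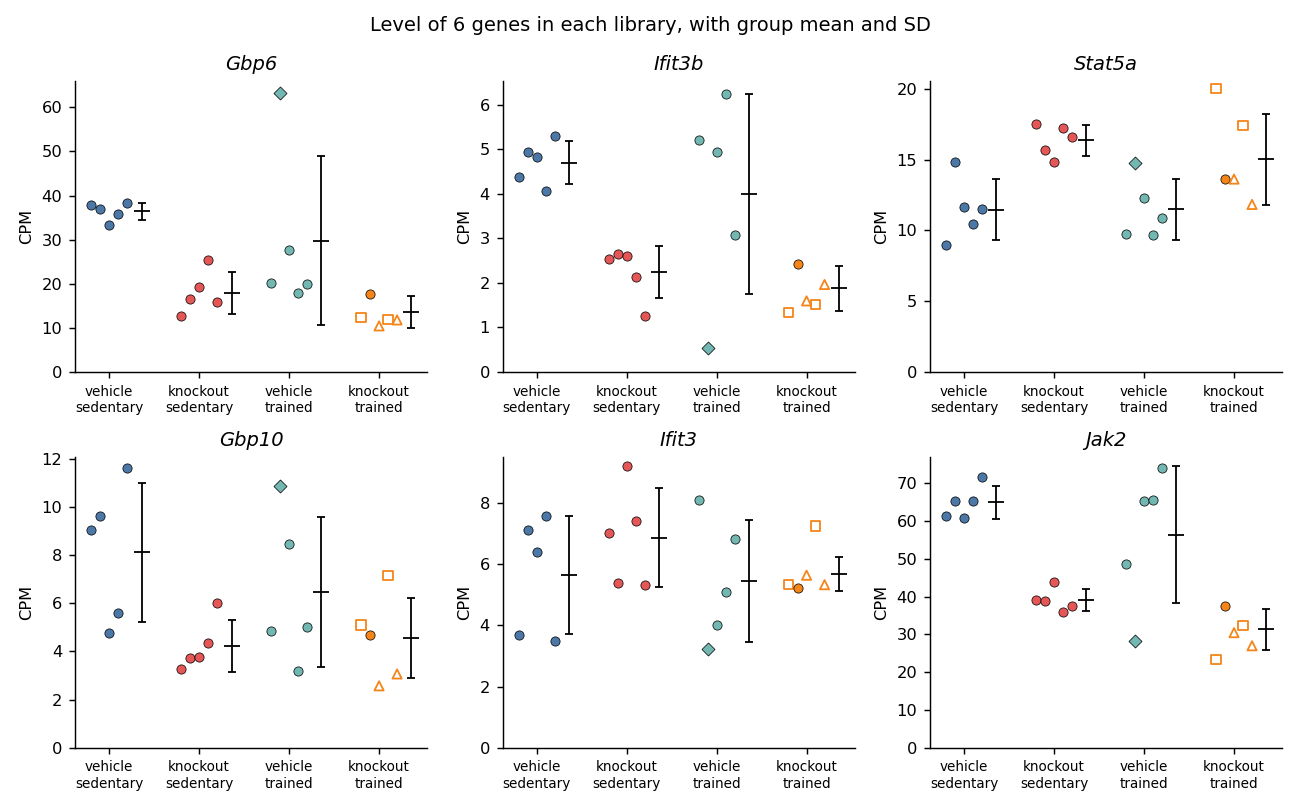
CPM of 6 genes in each library by group, with the group mean and SD as a bar at the right; the diamond is vehicle trained library 2, and open squares and open triangles are the 2 pairs of knockout trained libraries that were each counted once. Gbp6, Ifit3b and Jak2 are lower in all 5 knockout sedentary libraries than in any vehicle sedentary library, and Ifit3 and Gbp10 overlap.

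Groups without overlap were rare among the 66. In the sedentary comparison 3 had none, Gbp6, Ifit3b and Irf2bp1, all lower, beside 9.4% of all tested genes. Irf2bp1, a corepressor that binds IRF2, was at 29.4 ± 3.21 and 24.5 ± 1.75 CPM (SD, n = 5 each). In the trained comparison it was Gbp6 alone, beside 7.95% of all genes, and without library 2 there were 4 (Gbp6, Ifit3b, Stat5a and Irf2bp2), beside 14.5%. None of these counts is a larger share of the 66 than the share of all genes beside it.

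The genes around the STAT factors were read from a list of 12 tested interferon receptors, JAK kinases and inhibitors. In sedentary muscle 1 of the 12 fell and 0 rose, beside 2.33% of all tested genes called, with a list median of 0.11. The 1 was Jak2, the kinase that couples the interferon gamma, growth hormone and several cytokine receptors to STAT proteins. Vehicle sedentary libraries were at 61.3, 65.3, 60.9, 65.3 and 71.7 CPM and knockout sedentary libraries at 39.0, 38.9, 43.8, 35.98 and 37.4 CPM, with no overlap. Jak2 fell by 0.79 on the log2 scale (SE 0.18, adjusted p = 0.0222, edgeR). In trained muscle the vehicle libraries were at 48.7, 28.3, 65.2, 65.5 and 73.9 CPM, 28.3 CPM being library 2, and the knockout samples averaged 31.4 ± 5.43 CPM (SD, n = 3). The change was -0.79 (SE 0.22, adjusted p = 0.0509), and without library 2 it was -0.95 (adjusted p = 0.000399, edgeR). Jak1 had 165.8 and 174.4 CPM in the sedentary groups and a change of 0.02.

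Of the STAT factors, Stat2, Stat3 and Stat6 had log2 changes of -0.11, 0.03 and 0.16 in the sedentary comparison, with adjusted p above 0.05 for each (edgeR). Their levels in vehicle and knockout sedentary muscle were 7.70 and 7.40 CPM for Stat2, 47.3 and 50.3 CPM for Stat3, and 22.8 and 26.4 CPM for Stat6. The 8 Irf genes, some of which act with or downstream of STATs, had a median of 0.15 with 7 of 8 positive and 0 called. Irf1 was at 12.6 ± 3.79 and 13.3 ± 3.64 CPM, and Irf9 at 8.19 ± 1.58 and 9.74 ± 1.71 CPM (SD, n = 5 each). Irf7, a main amplifier of the type I response, was at 3.13 ± 1.08 and 3.18 ± 0.662 CPM, and Irf3, which starts it, at 16.6 ± 1.33 and 20.5 ± 2.36 CPM (SD, n = 5 each). The 3 Oas and 4 Ifitm genes had sedentary medians of 0.12 and 0.30. Ifitm3 was at 31.7 ± 9.61 and 42.2 ± 7.77 CPM, a change of 0.36 (SE 0.20, adjusted p = 0.651), and Oas2 changed by -0.41 (SE 0.38, adjusted p = 0.92, edgeR). Ifi27 and Ifi35 were nearly level, at 30.2 and 30.9 CPM and at 12.1 and 11.8 CPM in vehicle and knockout sedentary muscle.

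Of the remaining lists, none had a call in sedentary muscle: 0 of 15 genes of the class I route (median 0.07), 0 of 11 of the class II route (0.10), 0 of 11 nucleic acid sensors (0.06) and 0 of 26 other interferon-stimulated genes (0.10). In trained muscle these 4 lists and the receptor list had 0 calls, with medians of 0.09, 0.10, -0.05, 0.11 and -0.27. Without vehicle trained library 2, Parp9 and Dtx3l, partners that act in DNA repair and antiviral signalling, rose in sedentary muscle (2 of 26). In trained muscle Dtx3l rose, and Samd9l, Creb1 and Jak2 fell. Without that library 6.97% of all tested genes were called in sedentary and 8.66% in trained muscle. Dtx3l was at 18.1 ± 1.59 CPM in vehicle and 26.2 ± 1.52 CPM in knockout sedentary muscle (SD, n = 5 each), with no overlap, and its log2 change of 0.48 had an adjusted p of 0.483 with vehicle trained library 2 and 0.000484 without it (edgeR). Isg15, a common marker of an interferon response, was not called, at 1.47 ± 1.03 and 1.41 ± 0.33 CPM (SD, n = 5 each).

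**Figure D2:**
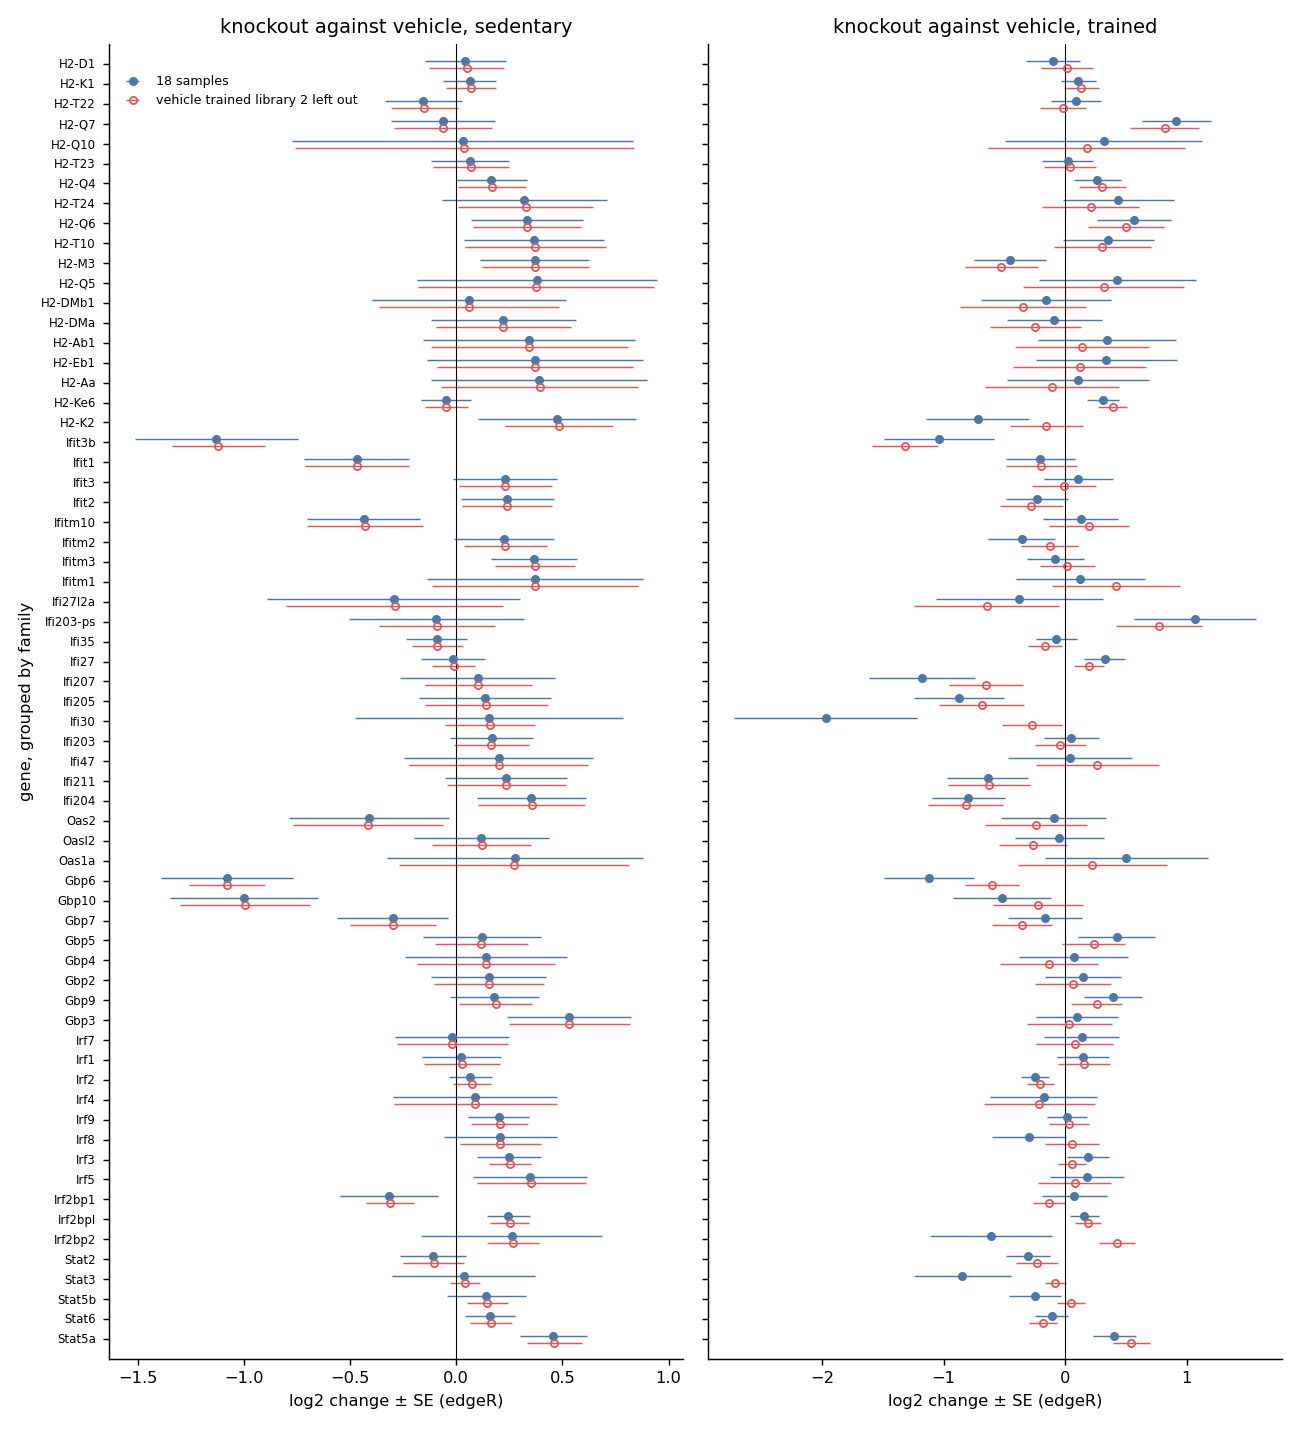
Log2 change of 65 of the 66 genes between knockout and vehicle muscle, sedentary at the left and trained at the right, with bars of 1 SE; filled points use all 18 samples and open points leave out vehicle trained library 2. Gbp6, Gbp10 and Ifit3b lie near -1 in sedentary muscle while the other genes lie between -0.47 and 0.53.

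The 66 genes as a whole had a median log2 change of 0.15 in the sedentary comparison, with 49 of 66 positive, beside a median of 0.01 and 52.3% positive over all tested genes. This rested on few libraries. Without knockout sedentary library 3 the median was 0.01 with 35 of 66 positive. It was 0.06 without vehicle sedentary library 1 and 0.08 without vehicle sedentary library 5. In the trained comparison the median was 0.04 with 36 of 66 positive, beside -0.03 over all genes, and without knockout trained library 2 it was -0.23 with 22 of 66 positive.

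Knockout sedentary library 3 had the highest value of its group for 37 of the 66 genes (56.1%), beside 23.5% of all tested genes. Gbp4 was at 26.4 CPM there and between 5.58 and 11.6 CPM in the other 4 libraries. Gbp3 was at 17.1 against 5.76 to 7.71 CPM, Gbp7 at 27.2 against 12.3 to 13.4 CPM and Gbp2 at 18.6 against 7.04 to 10.2 CPM. All 5 class II genes were 2.21-fold to 2.51-fold above the mean of the other 4, and H2-K1 was at 143.3 CPM, above the 104.4 to 115.8 CPM of the others. Gbp6 and Gbp10 were not raised: library 3 was at 19.4 CPM for Gbp6, inside the range of the other 4, and at 3.75 CPM for Gbp10. Ratios on the log2(CPM + 1) scale had a median of 0.93 for the Gbp genes and 1.17 for class II, beside 0.01 over all genes. Among genes outside the 66, Tgtp1, an interferon-inducible GTPase, was at 11.8 against 2.97 to 5.70 CPM and the invariant chain Cd74 at 149.0 against 47.3 to 92.2 CPM. Of 9 tested macrophage markers 8 were highest in this library, with a median ratio of 0.74. Their part in these levels was not tested.

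Class II genes varied more between libraries of one group than most genes did. Without vehicle trained library 2, the SD within groups on the log2(CPM + 1) scale had a median of 0.83 over the 5 class II genes, 0.27 over the 2 classical class I genes and 0.21 over all tested genes. H2-Aa, the alpha chain of one class II molecule, was at 8.12, 32.5, 33.1, 38.9 and 17.3 CPM in vehicle sedentary libraries 1 to 5. It was at 26.3, 41.8, 64.1, 23.5 and 20.5 CPM in knockout sedentary, and at 60.4, 12.4, 32.6, 43.3 and 29.6 CPM in vehicle trained libraries. In the knockout trained samples it was at 10.2 and 9.33 CPM for the pair 1 and 4, 76.7 CPM for library 2, and 21.9 and 22.6 CPM for the pair 3 and 5. Every group overlapped every other, and the highest library was 9.44-fold above the lowest, against 1.85-fold for H2-K1.

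The 3 class II chains kept close ratios. H2-Ab1, the partner chain of H2-Aa, stayed between 0.723 and 1.02 times H2-Aa in each of the 20 libraries, and H2-Eb1 between 0.698 and 1.05 times. The peptide-loading helpers varied more against it: H2-DMa was 0.0859 to 0.315 times and H2-DMb1 0.0548 to 0.14 times H2-Aa. The summed level of the 5 class II genes was highest in knockout trained library 2 with 231.9 CPM, knockout sedentary library 3 with 182.7 CPM and vehicle trained library 1 with 163.9 CPM. It was lowest in vehicle sedentary library 1 with 28.1 CPM. The knockout effect on H2-Aa was 0.39 (SE 0.51, adjusted p = 0.974) in sedentary and 0.11 (SE 0.58, adjusted p = 0.948) in trained muscle (edgeR). The sedentary median over the 5 genes was 0.34, and 0.00 without knockout sedentary library 3. The trained median was 0.11, and -0.83 with 0 of 5 positive without knockout trained library 2.

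Markers of some other cells were high and low in the same libraries, and markers of others were not. The sum of 10 macrophage markers was 362.8, 285.2 and 439.6 CPM in the 3 libraries highest for class II and 64.6, 61.0 and 66.4 CPM in the 3 lowest, of which the last 2 are the knockout trained pair counted as 1 sample. The sum of 6 fibro-adipogenic markers was 1933, 2241 and 2906 CPM in the 3 highest libraries and 991.4, 932.5 and 901.5 CPM in the 3 lowest. Erythroid sums, over 5 markers, were 2892, 820.4 and 2050 CPM in the 3 highest and 370.2, 439.2 and 419.2 CPM in the 3 lowest. Endothelial sums were 186.2, 273.8 and 185.5 CPM in the 3 highest and 229.1, 296.7 and 297.6 CPM in the 3 lowest, and dendritic sums were 14.8, 23.96 and 22.2 CPM against 19.8, 14.7 and 15.4 CPM. Vehicle trained library 2 was an exception, with the highest macrophage sum, 477.5 CPM, and a low class II sum, 35.8 CPM. Macrophage sums ran from 64.6 to 266.7 CPM in vehicle sedentary, 104.3 to 285.2 in knockout sedentary, 180.3 to 477.5 in vehicle trained and 63.7 to 362.8 CPM in knockout trained samples. Of the 10 markers, 9 passed the level rule, and Fcgr1 reached 1 CPM in 2 libraries. Among the B cell markers Cd79a reached 1 CPM in 1 library, and the summed B cell and T or NK cell levels were highest, 2.98 and 5.12 CPM, in knockout trained library 2, which also had the most erythroid RNA, 2892 CPM. Of 8 dendritic markers, Flt3 and Ccr7 did not reach 1 CPM in any library, Cd209a did in 18, Siglech in 10 and Clec9a in 9. The 4 tested ones had a median of 0.26 in the sedentary comparison with 3 of 4 positive, and the other, Zbtb46, which blood vessel cells make too, was called lower (-0.61, adjusted p = 0.0225, edgeR). The part of these cells in the class II levels was not tested.

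**Figure D3:**
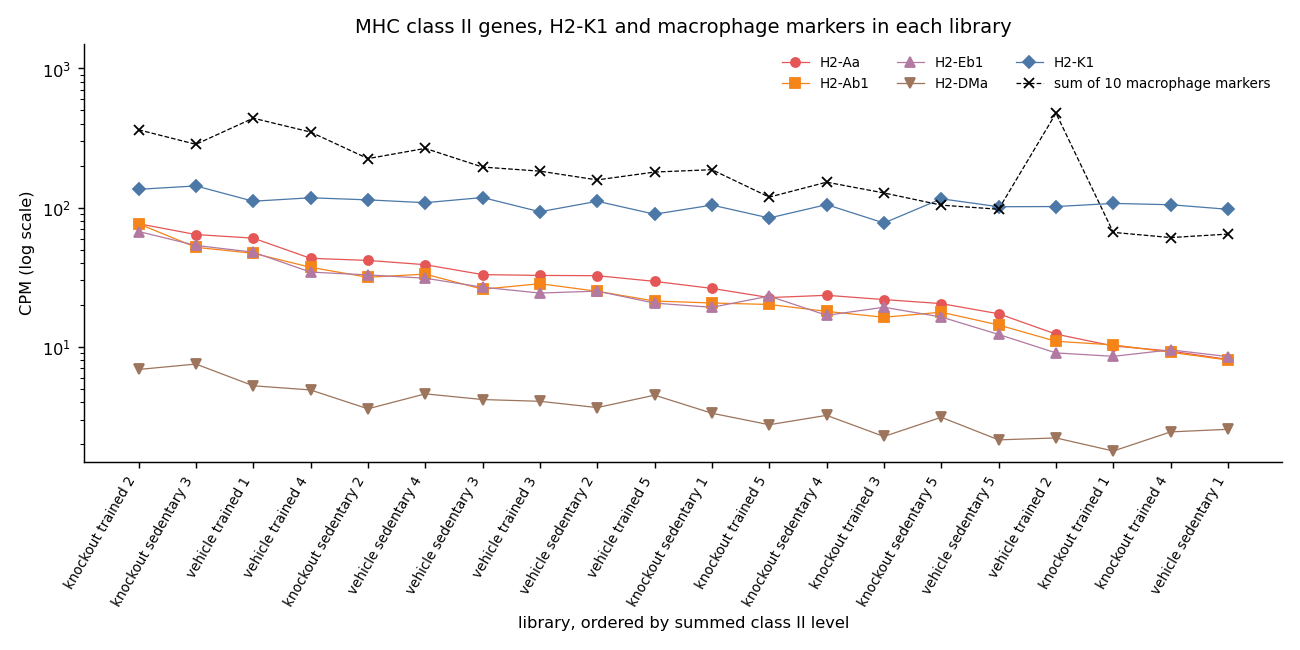
CPM on a log axis of 4 class II genes, of H2-K1 and of the sum of 10 macrophage markers in each of the 20 libraries, ordered by the summed class II level. H2-Aa, H2-Ab1 and H2-Eb1 run together from 76.7 CPM for H2-Aa in knockout trained library 2 down to 8.12 CPM in vehicle sedentary library 1, while H2-K1 stays between 77.6 and 143.3 CPM.

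The 2 classical class I genes, H2-K1 and H2-D1, were steadier than the class II genes. Over the 10 non-classical class I genes the SD within groups ran from 0.254 to 0.821 (log2(CPM + 1), without vehicle trained library 2). H2-K1 was at 107.4 ± 8.19, 116.5 ± 15.8 and 102.8 ± 11.8 CPM in vehicle sedentary, knockout sedentary and vehicle trained muscle (SD, n = 5 each) and at 107.5 ± 27.3 CPM in knockout trained muscle (SD, n = 3). Its knockout effects were 0.06 (SE 0.13) and 0.11 (SE 0.14), neither called, and the groups compared overlapped in each case. H2-D1 had knockout effects of 0.04 and -0.10, with an SE of 0.19 and 0.22. Its partner chain B2m was at 118.3 ± 18.3 and 130.4 ± 19.04 CPM in the sedentary groups (SD, n = 5 each). The non-classical class I genes H2-Q4, H2-T22 and H2-T23 had sedentary changes of 0.17, -0.16 and 0.06. The transactivators of the 2 classes, Nlrc5 for class I and Ciita for class II, were at 1.89 and 2.19 CPM and at 1.39 and 1.27 CPM in vehicle and knockout sedentary muscle, and neither was called. Tap1, a subunit of the peptide transporter of the class I route, was at 4.09 ± 1.09 and 4.87 ± 1.72 CPM (SD, n = 5 each), a change of 0.20 (SE 0.24, adjusted p = 0.967, edgeR).

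H2-Q7, a non-classical class I gene near H2-Q6, had the lowest p of the 66 in the trained comparison. It was at 8.89, 8.96, 12.2, 11.2 and 11.1 CPM in vehicle sedentary and at 5.13, 3.90, 6.48, 8.12 and 4.50 CPM in vehicle trained muscle, all 5 trained below all 5 sedentary libraries. The knockout trained samples split: 11.98 and 14.7 CPM for the pair 1 and 4, 12.8 CPM for library 2, but 4.21 and 6.08 CPM for the pair 3 and 5, inside the vehicle range. The log2 change was -0.86 for training in vehicle muscle (SE 0.25, adjusted p = 0.272) and 0.92 for knockout in trained muscle (SE 0.28, adjusted p = 0.0922). The interaction was 0.98 (SE 0.38, unadjusted p = 0.0186, adjusted p = 0.647, edgeR). H2-Q6 and H2-Q7 transcripts are 94.2% identical over 624 aligned bases, and their sum was 19.1 ± 1.83 CPM in vehicle sedentary and 11.5 ± 3.48 CPM in vehicle trained muscle (SD, n = 5 each), with overlap.

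Of the 5 Ifi200 genes on chromosome 1, some of which sense DNA, 4 had higher values in trained than in sedentary vehicle muscle at an unadjusted p only. The other, Ifi203, was at 10.2 ± 2.17 and 9.88 ± 2.11 CPM (SD, n = 5 each), and the pseudogene Ifi203-ps of the same chromosome was lower, at 1.54 ± 0.306 and 0.558 ± 0.365 CPM (SD, n = 5 each). Ifi205 was at 15.4, 25.8, 21.3, 31.4 and 16.1 CPM in vehicle sedentary and at 42.6, 55.8, 23.7, 46.0 and 29.1 CPM in vehicle trained libraries, with overlap. The changes were 0.90 for Ifi205, 1.23 for Ifi207, 0.75 for Ifi204 and 0.84 for Ifi211, each with an adjusted p of 0.272 (edgeR). Without library 2 they were 0.71, 0.70, 0.77 and 0.83. Training called none of these 4 genes in vehicle or in knockout muscle. For training in vehicle muscle, 15.2% of all tested genes had an unadjusted p under 0.05 (edgeR). In trained muscle the knockout samples had lower values than vehicle by a log2 change of -0.87, -1.18, -0.80 and -0.64 for the same 4 genes in that order, again not called, and by -0.69, -0.65, -0.82 and -0.63 without library 2. This comparison shares the vehicle trained samples with the one before. The 9 macrophage markers had medians of 1.08 (9 of 9 positive) for training in vehicle muscle and -0.76 (0 of 9) for knockout in trained muscle. The 6 fibro-adipogenic markers had medians of 0.60 (6 of 6 positive) and -0.58 (1 of 6). The part of either cell type was not tested.

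In vehicle muscle 2 genes had no overlap between trained and sedentary libraries, H2-Q7 and the pseudogene Ifi203-ps, both lower after training, beside 2.98% of all tested genes. Without library 2 these 2 and Gbp6 were lower (3), beside 4.91%. In knockout muscle 2 were lower, Stat5b and Stat3, beside 11.9% of all genes. Stat5b went from 224.2 ± 18.98 CPM (SD, n = 5) to 171.8 ± 6.54 CPM (SD, n = 3), a change of -0.24 (SE 0.22, adjusted p = 0.846, edgeR), which limma called without vehicle trained library 2. Stat3 went from 50.3 ± 1.99 to 42.1 ± 4.45 CPM. Over the 66 genes the training medians were 0.06 in vehicle and -0.02 in knockout muscle, beside 0.03 and -0.02 over all genes. Neither kept its sign each time 1 sample was left out. The vehicle median ran from -0.02 without vehicle sedentary library 1 to 0.13 without vehicle sedentary library 4, and the knockout median from -0.15 without knockout trained library 2 to 0.10 without knockout sedentary library 3.

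Vehicle trained library 2 differed from the other 4 libraries of its group in 18 of the 66 genes by over 2-fold (27.3%), beside 26.1% of all tested genes. The high genes included Ifi30, a lysosomal reductase of class II antigen processing, at 97.9 CPM against 7.998 to 9.85 CPM, Stat3 at 194.1 against 43.1 to 48.4 CPM and Irf2bp2 at 224 against 33.2 to 40.7 CPM. For Ifi30 the log2 change with training in vehicle muscle was 2.25 with this library and 0.57 without it. Socs3, the feedback inhibitor that STAT3 induces, was at 221.8 CPM there and between 5.4 and 7.3 CPM in the other 4. The low genes included Oasl2 at 0.859 against 3.04 to 3.93 CPM and Gbp4 at 2.31 against 5.83 to 11.3 CPM. Within the Gbp family Gbp6 and Gbp10 were raised and the other 6 lowered. The class II genes had a median log2 ratio of -1.53 there, while the macrophage sum was the highest of all libraries.

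**Figure D4:**
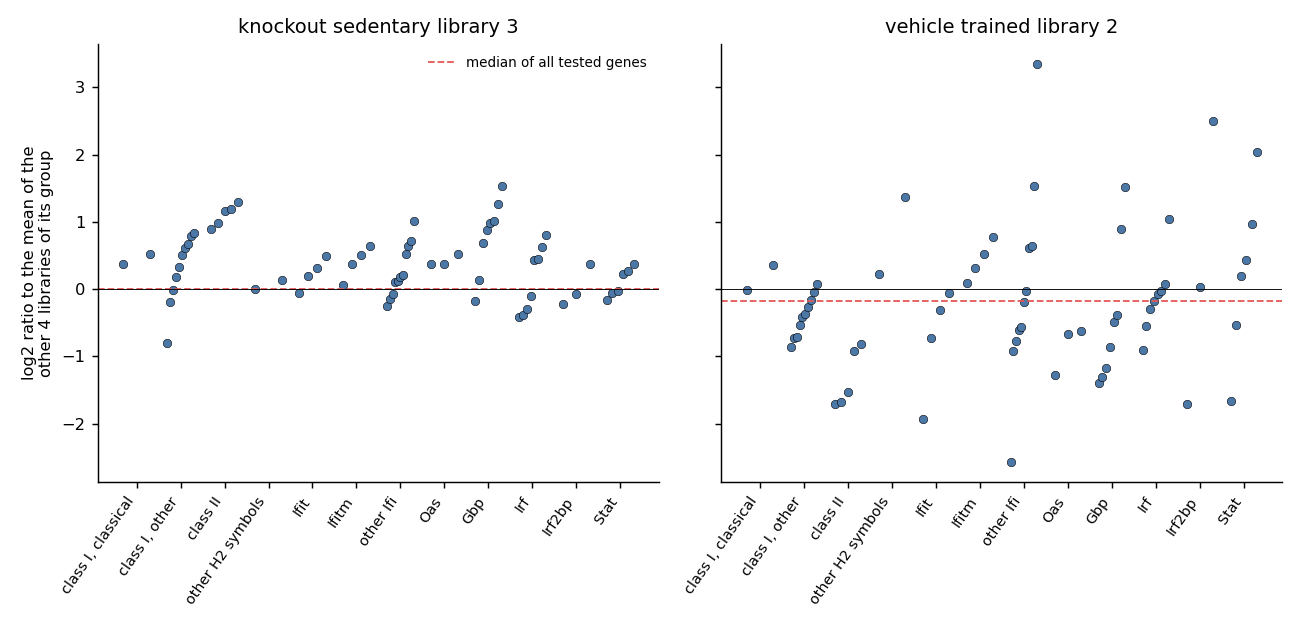
Log2 ratio, after adding 1 to each CPM, of the 66 genes in knockout sedentary library 3 (left) and vehicle trained library 2 (right) to the mean of the other 4 libraries of the same group, by family; the dashed line is the median of all tested genes. Class II and most Gbp genes lie above the line at the left, with class II medians of 1.17 and -1.53 in the 2 panels.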

How the data were processed

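Estimated counts per gene were deposited by the authors, as values that need not be whole (72.0% were), for 21844 genes and 20 libraries. RNA was extracted with Trizol and a column kit, per the labels' protocols. The submitters' processing notes name Partek, STAR 2.7.8a, DESeq2 and the builds mm10 and GRCm39. The build used, the annotation and the strand setting are not given in the sources used here. The table's name calls it CPM, but column totals of 10610333 to 19153527 are not those of CPM.

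Counts were rounded and tested with edgeR 4.0.16 (TMM, quasi-likelihood, two-sided) in R 4.3.3 over the 14361 genes that reached 1 CPM in 5 libraries, with 1 coefficient per group and Benjamini-Hochberg adjustment over all of them at 0.05. The knockout trained pairs 1 and 4, and 3 and 5, were summed. The SE given with an edgeR change is the absolute log2 change divided by the square root of the test's F statistic. DESeq2 1.42.0, limma 3.58.1, other normalizations and filters, a replicate block and leaving out each sample were alternatives. The edgeR script was tested on simulated data. The 66 genes and the lists were chosen with earlier results of these data known. Genes were named by a rule: those past the threshold in a comparison, and in any case the classical class I and main class II genes, the 3 most abundant non-classical class I genes, and the main Ifit, Ifitm, Ifi, Oas, Gbp, Irf and Stat genes. Other genes (among them Ifit3b, H2-Q7 and the Ifi200 genes) were named after their values were seen. Transcript likeness was computed with blastn on GENCODE M21 transcripts, which also gave exon lengths. Results for some genes are not reported here.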

Additional observations from a re-analysis of the deposited data

Results flagged for a closer look

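In 22 of 165 groups of samples tested (54 of the 66 genes and the targeted gene, in the 3 groups of 5 libraries), 1 sample lay far from the rest. Chance marks about 1 in 20 such groups, or 8.25, if genes are independent and chosen beforehand. Neither holds here, since 14 of the genes were named after their values were seen and the same libraries recur across genes. The count of 22 is therefore no test against chance. Of the 22, 9 were in vehicle trained library 2. It was high for Ifi30 with 97.9 CPM, Gbp6 with 63.3 CPM, Stat3 with 194 CPM, Stat5b with 343 CPM, Ifi207 with 57.1 CPM, Irf2bp2 with 224 CPM and the targeted gene Arntl with 132 CPM. It was low for Gbp9 with 4.62 CPM and Oasl2 with 0.859 CPM.

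Knockout sedentary library 3 was high for 9 genes. They were Gbp4 with 26.4 CPM, Gbp7 with 27.2 CPM, Gbp2 with 18.6 CPM, Gbp3 with 17.1 CPM, Gbp5 with 10.5 CPM, H2-Q4 with 36 CPM, H2-DMa with 7.52 CPM, Irf8 with 11.1 CPM and Oasl2 with 4.38 CPM. The other 4 were single values: Ifi203-ps high with 2.09 CPM in vehicle sedentary library 1, H2-Q10 high with 9.07 CPM in vehicle trained library 1, H2-Q4 low with 17.2 CPM in vehicle trained library 5, and Arntl high with 18.9 CPM in knockout sedentary library 1.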

How the results depend on the processing

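For knockout against vehicle in sedentary muscle, 21 of 30 alternatives kept 0 of the 66 genes called. Gbp6 alone (1 gene) was called with upper-quartile factors, DESeq2, and limma on log2(CPM + 1) or log2(CPM + 0.1), beside 2.24% to 3.81% of all genes. Fitting only the groups compared called 4 (Stat5a, Gbp6, Gbp10 and Ifit3b), beside 8.2% of all genes. Leaving out 1 sample called 0 to 3, the 3 being without vehicle trained library 2, beside 6.97%. In trained muscle, where 23 of 30 kept 0, DESeq2 called 2 (H2-Q7 and Gbp6), beside 6.43% of all genes. The 20 libraries taken as separate samples gave 5 (Gbp6, Ifi204, Ifi205, Ifi207 and Ifi30), beside 8.53%. Leaving out 1 sample gave 0 to 2. The 2 were without vehicle trained library 2, beside 8.66%, and H2-Q7 (1) was called without the knockout trained pair 3 and 5, beside 1.23%. Chosen after seeing the data, DESeq2 without vehicle trained library 2 called 4 in sedentary and 4 in trained muscle, beside 8.67% and 11.3% of all genes. Limma without that library called 3 and 1, beside 7.07% and 7.78%, and 1 for training in knockout muscle (Stat5b), beside 3.22%. Every alternative run for training in vehicle muscle (30) and for the interaction (29) called 0 of the 66.

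Over all tested genes the sedentary count of 334 became 537 with DESeq2, 1178 with only the groups compared and 1001 without vehicle trained library 2. The trained count of 473 became 907, 20 and 1244, and 1225 with the 20 libraries separate and 177 without the knockout trained pair 3 and 5. The sedentary Arntl difference ran from 0.718 to 0.901 with 1 sample left out. The trained one ran from -0.5 to 0.62 and reversed to 0.62 without vehicle trained library 2.

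With the replicate number as a block and 20 libraries as separate samples, 1 gene (Gbp6) was called in sedentary and 4 (Gbp6, Ifi204, Ifi205 and Ifi207) in trained muscle, with 336 and 980 of all genes. The numbers do not pair the samples: of 30 same-numbered pairs 11 had a correlation of deviations over 0.1 (range -0.39 to 0.35), and 4 of 20 libraries correlated best with their own number.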
